A study of Mus musculus with 60 samples.

Results

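Reactive astrocyte genes are genes whose RNA is known to rise in astrocytes after injury, inflammation or amyloid deposition. The genes followed here were Gfap, Vim, Osmr, Stat3, Serpina3n, Cp, Gbp2, Cd44, Fbln5 and S100a6. They were taken by name as 10 of the 35976 gene symbols in the count table, and all 10 had enough counts to be tested in every comparison. RNA was sequenced from bulk hippocampus of NLGF mice (genotype label APP-nlgf, the AppNL-G-F line) and wild-type (WT) mice at weeks 3, 8 and 24. Each genotype had 10 libraries per week, 5 labelled female and 5 labelled male, which gives 60 libraries in 12 groups. The labels name no further allele and no treatment, and all libraries were made from ribosomal-RNA-depleted total RNA. Whether each library is a different animal is not said by the labels, and p-values therefore cover the variation among these libraries, part of which may be technical.

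The AppNL-G-F line is a knock-in: familial Alzheimer's disease mutations and a humanised amyloid-beta stretch sit in the mouse's own App gene, so expression follows the App promoter and no transgene promoter is involved. Astrocytes answer amyloid plaques by swelling their processes and filling them with intermediate filament proteins, chiefly GFAP and vimentin. One route to this state runs from cytokines of the interleukin-6 family, through receptors such as the oncostatin M receptor (OSMR) paired with gp130, to the transcription factor STAT3, for which Gfap is a textbook target. Interferons drive another set of genes, which includes the guanylate-binding proteins. Most of these genes are not particular to astrocytes: Vim, Cd44, Fbln5 and Cp are also made by vascular, meningeal and ependymal cells.

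Libraries held 17.8 to 73.4 M counts with a median of 26.1 M counts (M for mega). At week 3, 7 NLGF libraries (females 1, 4 and 5, males 2 to 5) held 54.0 to 73.4 M counts, and the 13 others of that week held 17.8 to 34.0 M counts, so that depth and genotype are in part joined at week 3. One WT week 3 library, female 5, stood apart in Gbp2 and other interferon-inducible genes. Log2 fold changes at week 3 are given further on with and without these libraries. One library (NLGF week 3, labelled male 2) did not match its sex label. Of all 1770 pairs of libraries, it and NLGF week 3 female 1 had the smallest spread of log2 count ratios (a robust SD of 0.111, against 0.122 in the next closest pair and a median of 0.259). Their counts differed by more than sampling noise, with a chi-square per degree of freedom of 13.1 over 13599 genes (7.63 in the pair with the lowest). This value grows with depth, and separate preparations of 1 animal could also exceed sampling noise. It therefore cannot decide whether the pair comes from 1 animal, which was not tested. Both were kept as samples, so the n of 10 NLGF libraries at week 3 may count 1 animal more than once. Without male 2, edgeR called 257 genes at week 3 in place of 628, and none of the 10 members. One library titled week 8 (NLGF female 1) carries an age field of 3 weeks and was kept at week 8. Astrocyte identity was present in all libraries: the 15 markers of the identity list (Aqp4, Slc1a2, Aldh1l1 and others) were all tested, with a summed level at week 24 of 8954 to 11191 CPM in NLGF libraries and 9611 to 10842 CPM in WT libraries. CPM is the count scaled to a common library total. In bulk RNA, a change in the number of cells of a type and a change in RNA per cell cannot be told apart.

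At week 24, 3 of the 10 genes rose in NLGF hippocampus: Gfap 1.82-fold, Gbp2 1.56-fold and Osmr 1.45-fold. The other 7 did not pass the test, although the fold change of all 10 lay above 0. Of all 16508 genes tested at this age, 0.8% were called higher and 0.0787% lower (edgeR quasi-likelihood test, Benjamini-Hochberg adjusted p under 0.05). The median log2 fold change of the 10 genes was 0.21, against -0.00063 over all genes tested, of which 49.8% lay above 0. An unadjusted p under 0.05 was found for 5 of the 10, and for 8.99% of all genes. At week 3 none of the 10 was called, while 3.78% of 16605 genes were, and 4 of the 10 had an unadjusted p under 0.05, as did 22% of all genes. At week 8 none of the 10 was called, among 0 of 16494 genes called (1292 at an unadjusted p under 0.05, 7.83%; DESeq2 called 1 gene, none of the 10).

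**Figure D1:**
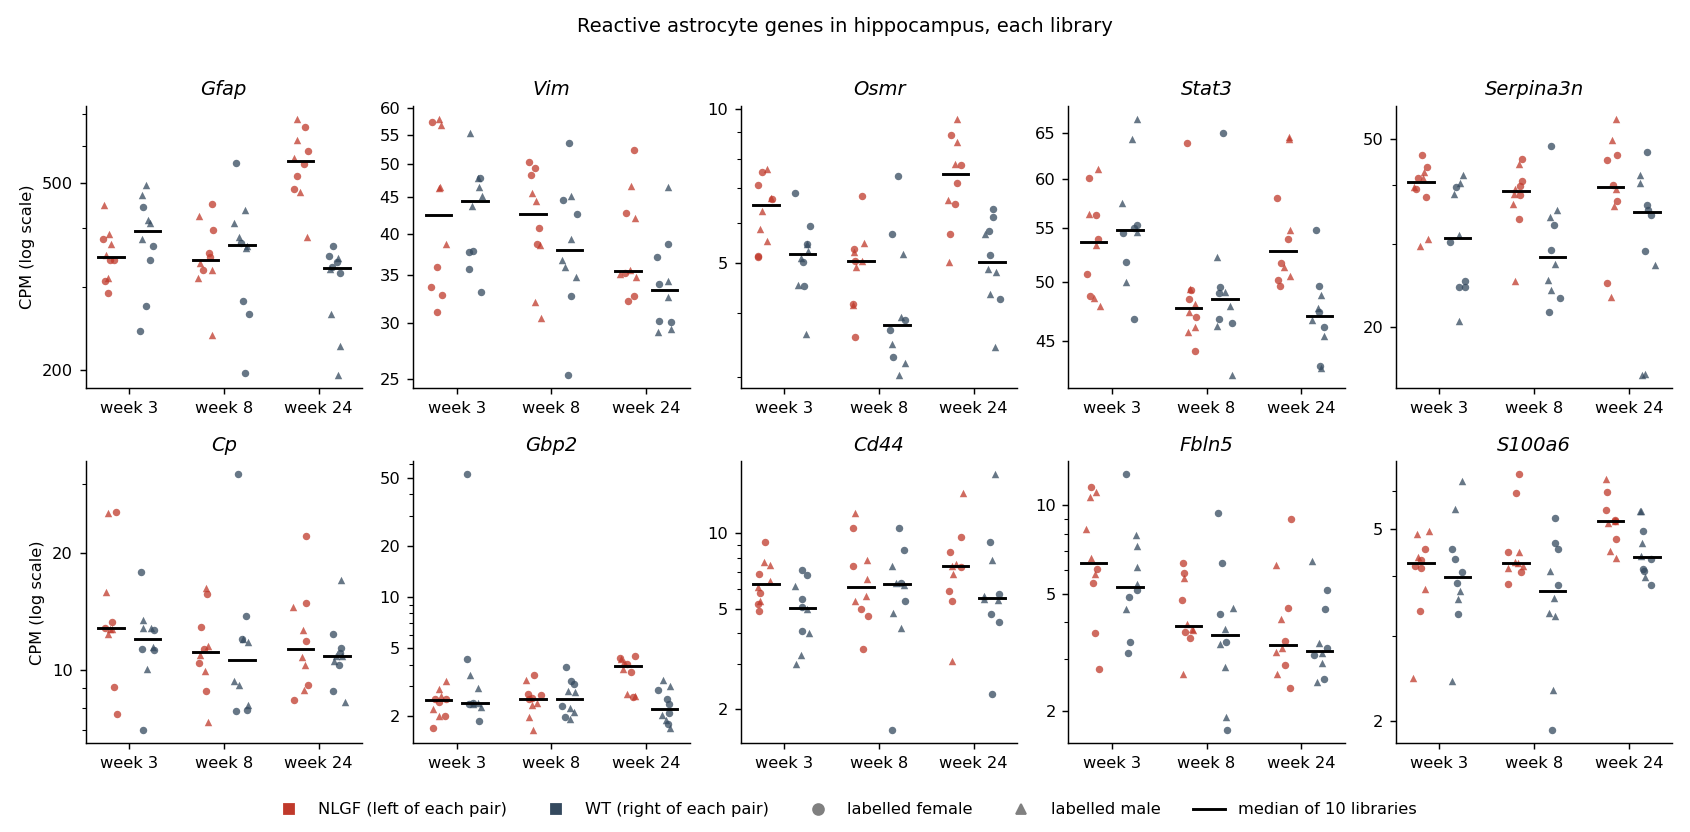
Level of each gene in every library as CPM on a log axis, with NLGF left of WT at weeks 3, 8 and 24, circles for libraries labelled female, triangles for those labelled male and bars for the median of 10 libraries. Gfap of the 10 NLGF week 24 libraries (383.8 to 684.5 CPM) lies above all 10 WT week 24 libraries (194.9 to 366.8 CPM), and 1 WT week 3 library stands at 52.4 CPM of Gbp2.

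Gfap, the intermediate filament protein that defines the astrocyte cytoskeleton (chr11:102887336-102900912, minus strand, GRCm38), had a lowest, median and highest level of 384, 556 and 684 CPM in the 10 NLGF libraries of week 24, against 195, 329 and 367 CPM in the 10 WT libraries. Every NLGF library lay above every WT library, which was so for 0.315% of the genes tested at this age. The log2 fold change was 0.86 ± 0.11 (SE, 95% interval 0.65 to 1.08, n = 10 each), with an adjusted p of 5.67e-05 by edgeR's quasi-likelihood test. At week 3 Gfap stood at 292, 347 and 449 CPM in NLGF libraries and at 241, 395 and 495 CPM in WT libraries, and at week 8 at 237, 342 and 451 CPM in NLGF libraries and at 197, 370 and 552 CPM in WT libraries. The groups overlapped at both ages, with log2 fold changes of -0.12 ± 0.10 at week 3 and -0.06 ± 0.14 at week 8, the week 3 value being 0.09 ± 0.14 without the 7 deep NLGF libraries. In the authors' deposited table Gfap is listed at week 24 with a log2 fold change of 0.81 and an adjusted p of 1.02e-09.

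The window from 250 bases before to 50 bases after the Gfap start was searched on both strands for the STAT motif TTCNNNGAA, the AP-1 motif TGACTCA and the interferon-response motif, which is GAAA, 2 bases of any kind and GAAA again. It is shown because Gfap was the member with the smallest p-value and its window was the single one of the 12 member windows to hold the STAT motif, which is found in 8.3% of 32851 windows of this length. The sequence is from RefSeq (GRCm38.p6, chr11:102897151-102897450, minus strand, 5′ to 3′), and capitals mark the match, from position -2 to 7 relative to the start.
Gfap promoter: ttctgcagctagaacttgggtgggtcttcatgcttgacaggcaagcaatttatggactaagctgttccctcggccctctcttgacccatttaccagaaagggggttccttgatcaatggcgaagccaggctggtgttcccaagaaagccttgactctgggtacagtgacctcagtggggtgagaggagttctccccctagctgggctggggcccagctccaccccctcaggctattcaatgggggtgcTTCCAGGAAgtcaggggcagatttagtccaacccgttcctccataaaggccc
A match of letters is a description of the window and says nothing of binding.

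Vim encodes vimentin, the filament protein that GFAP assembles with in reactive astrocytes, and shares 67.1% of its aligned coding bases with Gfap. Its levels at week 24 were 32.2, 35.4 and 52.3 CPM (lowest, median, highest) in NLGF libraries and 29.1, 33.3 and 46.5 CPM in WT libraries. The groups overlapped, and the log2 fold change of 0.19 ± 0.10 had an adjusted p of 0.594 (edgeR quasi-likelihood, Benjamini-Hochberg). Its 95% interval was -0.01 to 0.39. The log2 fold changes of Vim were 0.00 ± 0.10 at week 3 and 0.08 ± 0.11 at week 8.

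**Figure D2:**
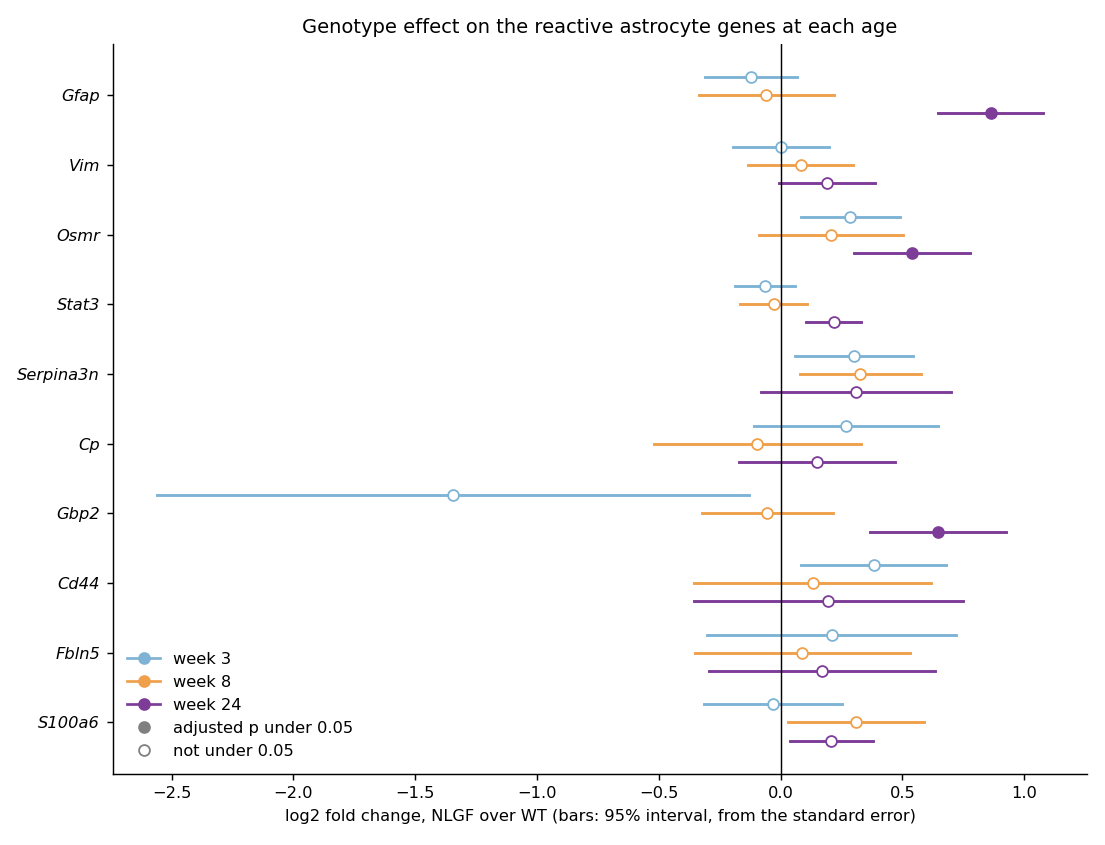
Log2 fold change (NLGF over WT) of each gene at weeks 3, 8 and 24, with bars for the 95% interval and filled points for an adjusted p under 0.05. The 3 filled points, all at week 24, are Gfap at 0.86, Osmr at 0.54 and Gbp2 at 0.65, and the wide bar at week 3 is Gbp2 at -1.34.

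Osmr, the receptor chain for oncostatin M, reached 5.03, 7.48 and 9.56 CPM (lowest, median, highest) in NLGF libraries of week 24 and 3.44, 5.03 and 6.37 CPM in WT libraries. Of the 10 NLGF libraries, 8 lay above every WT library. The log2 fold change was 0.54 ± 0.12 (SE, 95% interval 0.30 to 0.78), with an adjusted p of 0.0281 (edgeR quasi-likelihood, Benjamini-Hochberg). The call was lost in 8 of 20 fits that each left 1 library out (NLGF females 1 and 4 and males 3, 4 and 5, WT female 2 and males 1 and 5), where the adjusted p by the same edgeR test was 0.0538 to 0.0735 and the log2 fold change 0.48 to 0.54. The authors' deposited table lists Osmr at week 24 with a log2 fold change of 0.49 and an adjusted p of 0.00319.

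Stat3, the transcription factor downstream of that receptor, had 49.7, 52.8 and 64.6 CPM in NLGF libraries of week 24 and 42.9, 47.0 and 54.8 CPM in WT libraries. Of the 10 WT libraries, 9 lay below every NLGF library. Its log2 fold change of 0.22 ± 0.06 missed the threshold with an adjusted p of 0.0975 (edgeR quasi-likelihood, Benjamini-Hochberg). It passed with DESeq2 (adjusted p = 0.0316), with voom (adjusted p = 0.0442) and with edgeR without WT week 24 female 4 (log2 fold change 0.25, adjusted p = 0.0223).

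Other genes of interleukin-6 family signalling were for the most part not called at week 24. Of 24 on that list, 19 were tested, and their median log2 fold change was 0.02. The shared receptor chain gp130 (Il6st) stood at a median of 104 CPM in NLGF libraries and 97.4 CPM in WT libraries, and the leukaemia inhibitory factor receptor (Lifr) at 126 CPM in NLGF libraries and 125 CPM in WT libraries, neither called. Socs3, the feedback inhibitor induced by STAT3, had 1.19 to 2.73 CPM in NLGF libraries and 0.776 to 2.91 CPM in WT libraries with a log2 fold change of 0.17 ± 0.23. Oncostatin M itself (Osm) was near the detection limit, at 0.0683 to 0.209 CPM in NLGF libraries and 0 to 0.340 CPM in WT libraries, and was not tested.

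Gbp2, an interferon-inducible GTPase (chr3:142620602-142638008, plus strand, GRCm38), had 2.58, 3.91 and 4.51 CPM (lowest, median, highest) in NLGF libraries of week 24 and 1.70, 2.20 and 3.25 CPM in WT libraries. Of the 10 NLGF libraries, 7 lay above every WT library. The log2 fold change was 0.65 ± 0.14 (SE, 95% interval 0.37 to 0.93), with an adjusted p of 0.0244 (edgeR quasi-likelihood, Benjamini-Hochberg). Counts behind these levels were 65 to 132 per NLGF library and 37 to 93 per WT library. The call was lost in 7 of 20 fits without 1 library (NLGF females 1 and 3 and males 3 and 4, WT females 3 and 4 and male 5). In these fits the same edgeR test gave an adjusted p of 0.0504 to 0.0623 and a log2 fold change of 0.61 to 0.63. The authors' deposited table lists 2 of the 10 genes at week 24, Gfap and Osmr, and does not list Gbp2 at that age.

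Among 12 RefSeq windows of the 10 genes, the Gbp2 window was the only one with the AP-1 motif (5.2% of all windows) and 1 of 2 with the interferon-response motif (3.44% of all windows), the other being a window of Fbln5. It is shown because Gbp2 was the interferon-inducible member of the 10. It spans chr3:142620413-142620712 on the plus strand (RefSeq, GRCm38.p6, 5′ to 3′), and capitals mark the AP-1 match, in reverse complement at positions -102 to -96, and the interferon-response match, also in reverse complement, at positions -59 to -50.
Gbp2 promoter: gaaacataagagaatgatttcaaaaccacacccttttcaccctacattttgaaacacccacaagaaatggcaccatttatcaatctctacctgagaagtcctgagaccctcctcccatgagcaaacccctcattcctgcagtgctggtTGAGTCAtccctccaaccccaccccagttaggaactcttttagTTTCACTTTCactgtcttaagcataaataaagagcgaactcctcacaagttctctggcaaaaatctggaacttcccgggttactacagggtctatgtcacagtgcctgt

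Paralogs of Gbp2 were not called at week 24. Of 10 paralogs 7 were tested, and 4 of the 7 had an unadjusted p under 0.05 (edgeR quasi-likelihood), against 8.99% of all genes tested. All 7 had a fold change above 0, with a median log2 fold change of 0.24. Gbp3 came nearest, at 0.57 ± 0.14 with an adjusted p of 0.0529 (edgeR quasi-likelihood, Benjamini-Hochberg). Coding sequences of the paralogs match Gbp2 at 64.2 to 82.5% of aligned bases, the highest being Gbp2b, so reads that fit several copies may be shared between them in the deposited counts.

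At week 3 the Gbp2 value turned on 1 library. Its levels were 1.69, 2.46 and 3.19 CPM in NLGF libraries and 1.85, 2.37 and 52.4 CPM in WT libraries, where the highest, WT female 5, was 12.2 times the next WT library (4.30 CPM). Its log2 fold change (NLGF over WT) was -1.34 ± 0.62 (adjusted p = 0.213), and -0.17 ± 0.16 (adjusted p = 0.557) without that library, both by edgeR's quasi-likelihood test. When all 60 libraries shared 1 edgeR fit, the value of -1.35 ± 0.38 was called (adjusted p = 0.0157). The authors' deposited table lists Gbp2 at week 3 with a log2 fold change of -0.90 and an adjusted p of 0.00177.

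WT week 3 female 5 was high in other genes of the same response. By the ratio to the highest of the other 9 WT week 3 libraries, Gbp2 ranked first of 14503 genes, followed by Gbp5 (31.3 CPM, 11.2 times), Gbp4 (9.84 times) and Igtp (32.2 CPM, 7.04 times), all interferon-inducible GTPases. Only 36 genes were above 2 times the highest of the others. Adora2a, an adenosine receptor abundant in the striatum, was also among them at 41.0 CPM, 6.75 times the highest of the others, and the summed markers of neighbouring brain regions were higher in this library (164 CPM) than in the other 9 (52.1 to 135 CPM). The part of tissue content in the Gbp2 value was not tested. Gfap, at 241 CPM, was lower there than in the other 9 WT week 3 libraries (274 to 495 CPM), as was Fbln5 (3.15 CPM, against 3.42 to 12.8 CPM), and the other 7 genes lay within the range of the others.

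**Figure D3:**
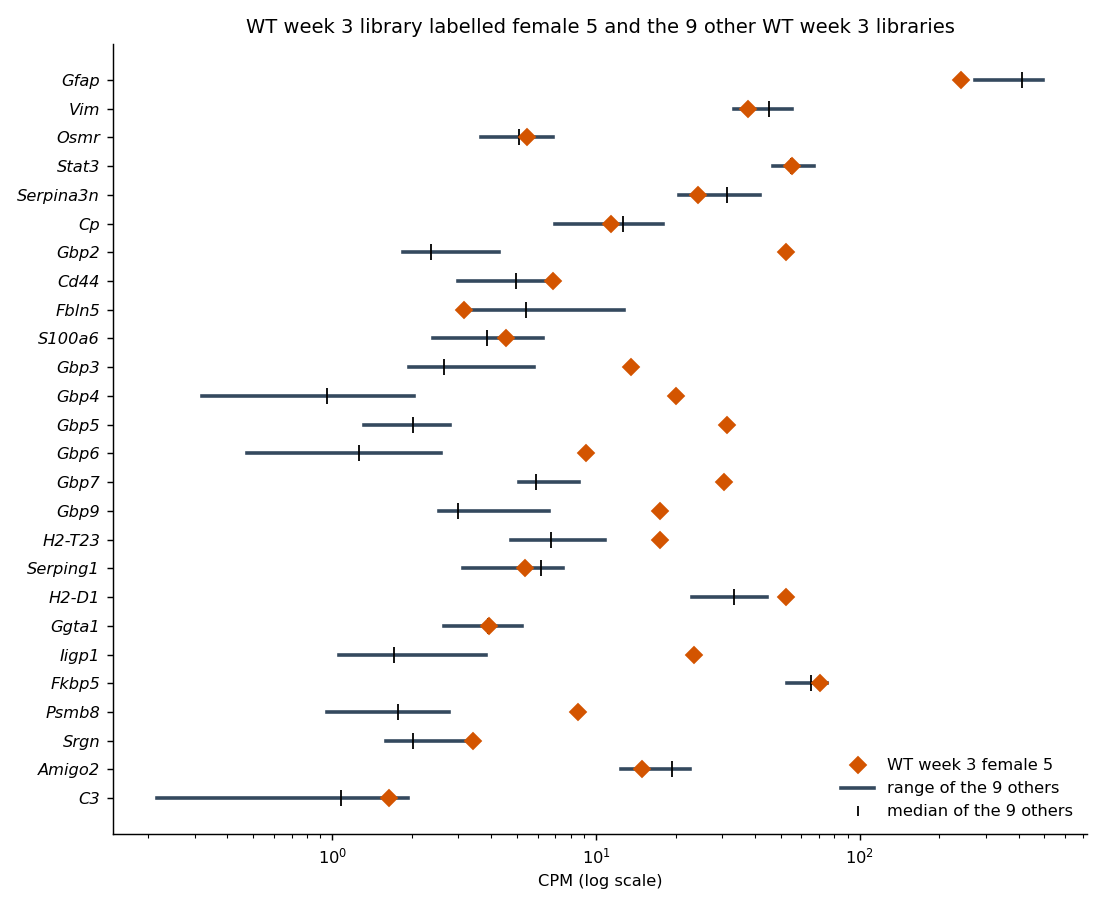
Level of the 10 genes, of Gbp paralogs and of further genes linked to the A1 astrocyte state in the WT week 3 library labelled female 5 (diamonds), with the range (lines) and median (ticks) of the 9 other WT week 3 libraries, as CPM on a log axis. Gbp2 at 52.4 CPM and Iigp1 at 23.4 CPM lie far right of their ranges, while Gfap at 241 CPM lies just left of its own.

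Serpina3n, a secreted serine protease inhibitor known as a marker of reactive astrocytes, had 23.2, 39.6 and 55.2 CPM (lowest, median, highest) in NLGF libraries of week 24 and 15.9, 35.0 and 47.0 CPM in WT libraries. The groups overlapped and the log2 fold change of 0.31 ± 0.20 was not called (adjusted p = 0.679, edgeR quasi-likelihood). At week 3 the medians were 40.5 CPM in NLGF libraries and 30.8 CPM in WT libraries, and at week 8 they were 38.8 CPM in NLGF libraries and 28.2 CPM in WT libraries. The log2 fold change was 0.30 ± 0.12 at week 3 (unadjusted p = 0.0229, adjusted p = 0.154) and 0.33 ± 0.13 at week 8 (unadjusted p = 0.0172, adjusted p = 0.633), again without passing the edgeR test. Of the 10 NLGF libraries, 8, 9 and 8 lay above the WT median at weeks 3, 8 and 24. Only 1 of 10 Serpina3 paralogs, Serpina3g, was tested, at medians of 0.796 CPM in NLGF libraries and 0.954 CPM in WT libraries of week 24, and reads that fit several of the paralogs, which share 79.2 to 86% of aligned coding bases with Serpina3n, may be split between them.

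Levels of Serpina3n varied across libraries with the summed hippocampus markers (Zbtb20, Prox1, Wfs1, Neurod6 and others). After removal of each group's mean, log2 CPM of Serpina3n was correlated with this sum over all 60 libraries. The Pearson r was 0.82 and the Spearman rho 0.77. Among the 20 week 24 libraries these were 0.94 and 0.96. The points share library and depth, so r and rho are given as descriptions only. The sum adds plain CPM, so it is weighted to Zbtb20. In the 9 WT week 3 libraries other than female 5, Zbtb20 had a median of 727 CPM and Fibcd1, the next, 192 CPM. WT week 24 males 2 and 5, with the 2 lowest marker sums of that age (824 and 906 CPM, against 1201 to 1898 CPM in the other 8 WT libraries), held the 2 lowest Serpina3n levels (15.9 CPM in each). The same 2 libraries held the 2 lowest Gfap levels of the WT week 24 libraries (195 and 225 CPM). Without NLGF week 3 male 2, over 59 libraries less the mean of each genotype and week, Gfap followed the hippocampus sum at an r of 0.66 (rho 0.52). Values were 0.53 (rho 0.50) for Stat3, 0.35 (rho 0.27) for Osmr and -0.12 (rho 0.03) for Gbp2. NLGF libraries had the higher median hippocampus sum at each age, with overlapping ranges. Those medians were 1772, 1544 and 1492 CPM at weeks 3, 8 and 24, against WT medians of 1524, 1382 and 1345 CPM. Of the 8 markers, 5, 7 and 5 had a log2 fold change above 0, with medians of 0.14, 0.15 and 0.14. By edgeR 1 of them was called at week 3 and 0 at the later ages. The part of tissue content in the Serpina3n, Gfap, Stat3 and Osmr values was not tested.

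Cp encodes ceruloplasmin, a copper-carrying ferroxidase of plasma that astrocytes also hold as a membrane-anchored form. It stood at 8.34, 11.3 and 22.2 CPM in NLGF libraries of week 24 and at 8.27, 10.9 and 17.1 CPM in WT libraries, with a log2 fold change of 0.15 ± 0.16 (adjusted p = 0.821, edgeR quasi-likelihood). The groups overlapped. Its highest level in the series, 31.9 CPM, was in WT week 8 female 3, where the next WT library of that week had 13.7 CPM.

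Fbln5, an elastic fibre protein, and Cp varied together from library to library, with an r of 0.77 and a rho of 0.71 over 60 libraries. Both also followed the summed markers of mural cells and meningeal fibroblasts (Col1a1, Dcn, Ogn and others), at an r of 0.86 for Cp and 0.82 for Fbln5 (rho 0.77 and 0.78), and so did Vim at 0.64 (rho 0.43). This marker sum ranged from 222 to 698 CPM in NLGF libraries and from 216 to 524 CPM in WT libraries of week 24, with no marker at 0 in every library. The 4 libraries with the most Cp held much choroid plexus RNA, with a marker sum of 5172 CPM in WT week 8 female 3, 10734 CPM in NLGF week 3 female 1, 10291 CPM in NLGF week 3 male 2 and 10565 CPM in NLGF week 24 female 3. Median sums of those sets were 395 CPM in WT libraries of week 8, 857 CPM in NLGF libraries of week 3 and 584 CPM in NLGF libraries of week 24. The next highest Cp, 17.9 CPM in WT week 3 female 4, stood beside a choroid plexus sum of 43.3 CPM, a fibroblast sum of 661 CPM and the highest Fbln5 of the series (12.8 CPM). Other libraries had a higher choroid plexus sum than WT week 8 female 3 but less Cp. These were WT week 24 male 4 (6012 CPM, Cp 17.1 CPM), NLGF week 8 male 4 (5417 CPM, Cp 16.2 CPM) and NLGF week 24 female 1 (5408 CPM, Cp 14.9 CPM). Without NLGF week 3 male 2, the library close to NLGF week 3 female 1, the r with the fibroblast sum was 0.83 for Cp and 0.81 for Fbln5 over 59 libraries. These 59-library values were taken less the mean of each genotype and week, not split by sex, so they are not a like-for-like match to 0.86 and 0.82. The week 3 log2 fold change of Cp was 0.16 without male 2, against 0.27 with it, called by edgeR in neither case. The part of these cells in the Cp, Fbln5 and Vim values was not tested. Fbln5 itself had 2.38, 3.36 and 8.96 CPM in NLGF libraries of week 24 and 2.50, 3.20 and 6.46 CPM in WT libraries (0.17 ± 0.24, adjusted p = 0.863 by edgeR's quasi-likelihood test).

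**Figure D4:**
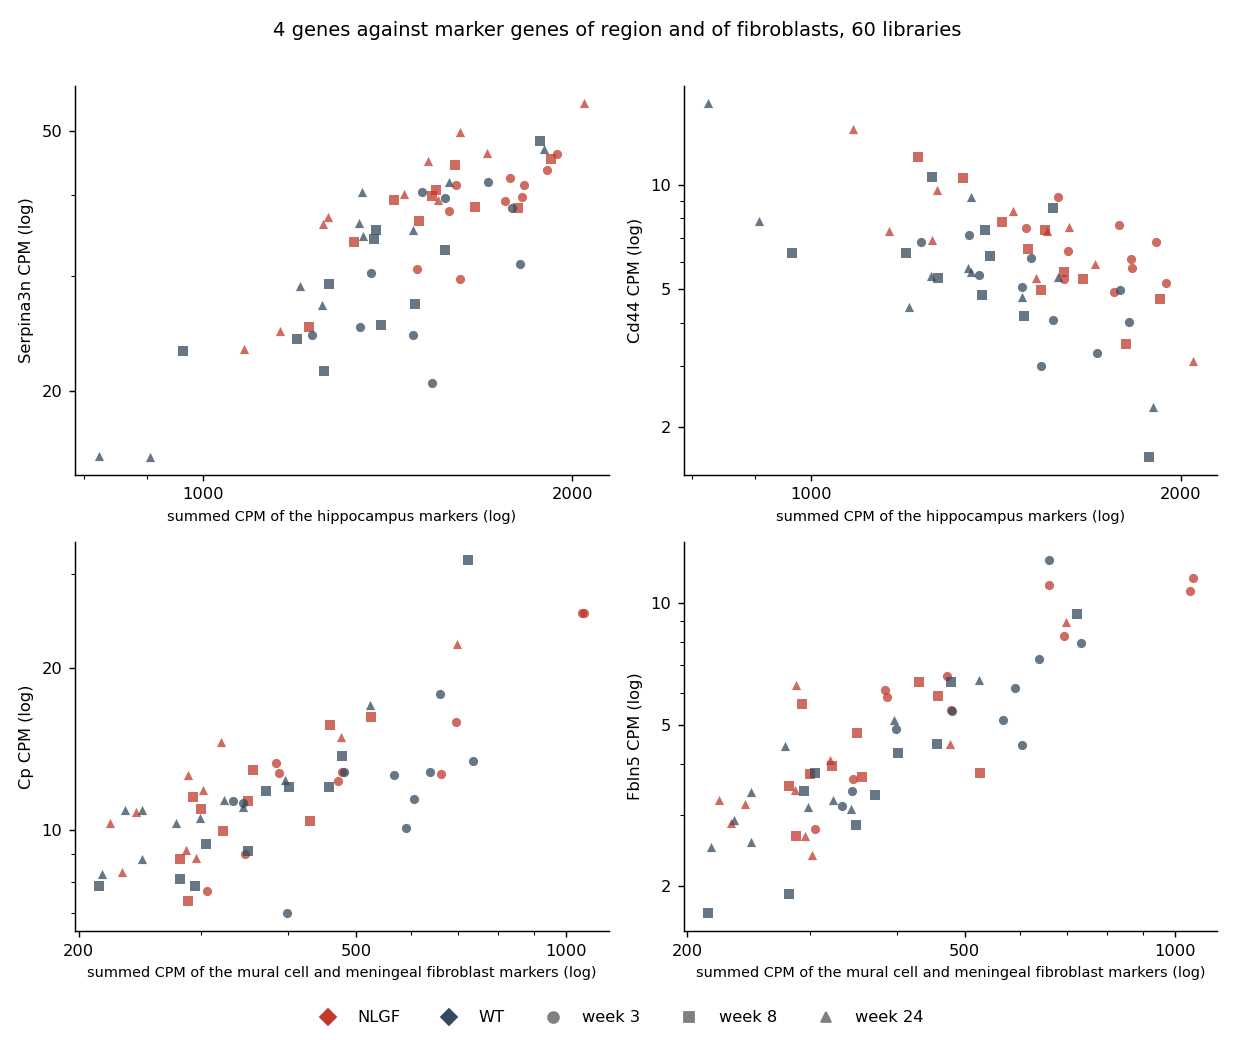
Level of Serpina3n and Cd44 against the summed hippocampus markers and of Cp and Fbln5 against the summed mural cell and meningeal fibroblast markers in the 60 libraries, both axes as CPM on log scales, coloured by genotype and shaped by week. Libraries with a higher hippocampus sum have more Serpina3n and less Cd44 (r of 0.82 and -0.71 within groups), and those with a higher fibroblast sum have more Cp and Fbln5 (r of 0.86 and 0.82).

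Cd44, a receptor for the matrix polysaccharide hyaluronan, varied widely within the groups of week 24, at 3.11, 7.37 and 14.5 CPM in NLGF libraries and 2.28, 5.54 and 17.2 CPM in WT libraries. The coefficient of variation was 39.4% in NLGF libraries and 60.3% in WT libraries, and the log2 fold change of 0.20 ± 0.28 was not called (adjusted p = 0.871, edgeR quasi-likelihood). Cd44 ran against the hippocampus markers, with an r of -0.71 and a rho of -0.65 over 60 libraries, and against Gfap, with an r of -0.57 (rho -0.51). Male 2 of both genotypes held the highest Cd44 of week 24 (14.5 CPM in NLGF, 17.2 CPM in WT), the lowest Gfap of its group (384 CPM in NLGF, 195 CPM in WT), and Serpina3n of 23.2 CPM in the NLGF library, against 15.9 CPM in the WT library. Without both of them, Gfap (0.85 ± 0.09, adjusted p = 1.01e-05) and Osmr (0.53 ± 0.11, adjusted p = 0.0129) remained called by edgeR and Gbp2 did not (0.60 ± 0.15, adjusted p = 0.0773), a choice made after seeing the data.

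S100a6, a small calcium-binding protein, had 4.34, 5.20 and 6.36 CPM in NLGF libraries of week 24 and 3.82, 4.37 and 5.46 CPM in WT libraries. Of the 10 NLGF libraries, 3 lay above every WT library, and the log2 fold change was 0.21 ± 0.09 (unadjusted p = 0.0253, adjusted p = 0.462, edgeR quasi-likelihood). At week 8 all 10 NLGF libraries lay above the WT median, with medians of 4.26 CPM in NLGF libraries and 3.71 CPM in WT libraries and a log2 fold change of 0.31 ± 0.14 (adjusted p = 0.633). At week 3 it was -0.03 ± 0.14.

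Per kilobase of exon, Gfap was far above the other 9 genes at week 24, with a median of 131.9 CPM per kb in NLGF libraries and 78.04 CPM per kb in WT libraries. Serpina3n followed at 19.2 CPM per kb in NLGF libraries and 16.94 CPM per kb in WT libraries, and Vim at 7.468 CPM per kb in NLGF libraries and 7.022 CPM per kb in WT libraries. At the low end were Osmr at 0.6173 CPM per kb in NLGF libraries and 0.4155 CPM per kb in WT libraries, and Fbln5 at 0.486 CPM per kb in NLGF libraries and 0.4635 CPM per kb in WT libraries. These levels rest on the exon length of the annotation, and Gfap, Stat3, Cp, Gbp2 and Cd44 each overlap another annotated gene.

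Other gene groups linked to astrocyte reactivity were measured at week 24 beside the 10 genes. Of 7 tested genes of the pan-reactive list (Lcn2, Cxcl10, Aspg and others) none was called, with 3 at an unadjusted p under 0.05. Of 10 genes linked to the A1 state, none was called by edgeR, but all 10 lay above 0 with a median log2 fold change of 0.37 and 6 at an unadjusted p under 0.05. Complement C3, the usual marker of that state, had medians of 2.97 CPM in NLGF libraries and 1.74 CPM in WT libraries (1.22 ± 0.38, adjusted p = 0.236). Of 8 tested genes linked to the A2 state 1 was called, Cd14, a co-receptor for bacterial lipids that microglia also make, at a median of 2.80 CPM in NLGF libraries and 1.61 CPM in WT libraries (0.94 ± 0.14, adjusted p = 0.000242). Of 10 genes linked to plaque-associated astrocytes 2 were called, complement C4b at 101 CPM in NLGF libraries and 51.6 CPM in WT libraries (0.88 ± 0.15, adjusted p = 0.00347) and the tetraspanin Cd9 (0.54 ± 0.11, adjusted p = 0.0150), all by edgeR's quasi-likelihood test. The Cd9 call was lost with all 60 libraries in 1 edgeR fit (adjusted p = 0.115), in females alone (0.301) and in males alone (0.550), that of Cd14 in females (0.0606) and males alone (0.213), and that of C4b in males alone (0.614).

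Of the 15 markers of astrocyte identity 0 were called at week 24 (2 at an unadjusted p under 0.05), and their median log2 fold change was -0.04. Of 10 microglia markers 7 were called higher at week 24, among them Trem2 (1.18 ± 0.07, adjusted p = 1.82e-10) and Tyrobp (1.16 ± 0.07, adjusted p = 5.88e-10), by edgeR's quasi-likelihood test. Their summed level was 365 to 467 CPM in NLGF libraries and 305 to 351 CPM in WT libraries, without overlap and with no marker at 0 in every library. Among the 20 libraries of week 24, after removal of group means, the microglia sum correlated with Osmr at an r of 0.74 (rho 0.70) and with Gfap at 0.66 (rho 0.67). The part of microglia in the Gfap, Osmr and Gbp2 values was not tested. Ependyma and choroid plexus markers were not called, with medians of 0.48 and 0.24 on the log2 scale. Without NLGF female 3 and WT male 4, the libraries of each genotype with the most choroid plexus RNA at week 24, Gfap (0.92, adjusted p = 0.000110), Osmr (0.58, adjusted p = 0.0406) and Gbp2 (0.67, adjusted p = 0.0311) stayed called in edgeR, again a choice made after seeing the data.

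The genotype effect on Gfap was larger at week 24 than at the younger ages by the test of the difference itself. It exceeded that at week 8 by 0.92 ± 0.18 on the log2 scale (adjusted p = 0.00165, edgeR quasi-likelihood over 60 libraries), where 0.31% of 17752 genes were called, and Gfap was the only one of the 10. It was called in each of the 60 fits that left 1 library out. It exceeded that at week 3 by 0.99 ± 0.18 (adjusted p = 0.000396), where 1.15% of genes were called, but without the 7 deep NLGF week 3 libraries the difference of 0.77 ± 0.23 had an adjusted p of 0.276. Without NLGF week 3 male 2 it was 0.97 ± 0.18 (adjusted p = 0.000891), and that of Gbp2 was 2.09 ± 0.52 (adjusted p = 0.0312). For Osmr the difference from week 8 was 0.33 ± 0.18 and from week 3 0.25 ± 0.18, neither called. For Gbp2 the difference from week 8 was 0.70 ± 0.51 (adjusted p = 1.00), and 0.70 ± 0.20 (adjusted p = 0.188) without WT week 3 female 5, a library of the shared fit. The difference from week 3 was called for Gbp2 in edgeR (1.99 ± 0.52, adjusted p = 0.0397) and was 0.82 ± 0.20 (adjusted p = 0.0284) without that library. With the replicate number as a block it was 1.16 ± 0.38 and no longer called (adjusted p = 0.148), and DESeq2 gave it no adjusted p. It was also lost in 17 of 60 edgeR fits without 1 library (NLGF week 3 females 1, 2, 4 and 5 and males 3 and 5, NLGF week 24 females 1 and 3 and males 3 and 4, and WT week 24 females 2, 3, 4 and 5 and males 1, 2 and 5), with an adjusted p of 0.0501 to 0.0836.

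Osmr, Cd44 and Serpina3n, which had an unadjusted p under 0.05 at week 3, are given by library depth. Osmr had a median of 6.70 CPM in the 7 deep NLGF libraries, 5.17 CPM in the 3 other NLGF libraries and 5.20 CPM in the 10 WT libraries. Its log2 fold change was 0.29 ± 0.10 over all 20 libraries (adjusted p = 0.107), 0.38 ± 0.10 with the deep NLGF libraries only (adjusted p = 0.00972) and 0.00 ± 0.16 with the 3 others only, all by edgeR. Over the same 20 libraries voom called it (0.29, adjusted p = 0.0292). Cd44 had medians of 6.46 CPM in the deep NLGF, 5.36 CPM in the other NLGF and 5.02 CPM in the WT libraries. Its log2 fold change was 0.38 ± 0.15 over all 20 libraries (adjusted p = 0.142), 0.45 ± 0.17 with the deep NLGF libraries only (adjusted p = 0.0621) and 0.16 ± 0.21 with the 3 others only (adjusted p = 0.782, edgeR). Serpina3n had medians of 39.1 CPM in the deep NLGF, 43.6 CPM in the other NLGF and 30.8 CPM in the WT libraries, and a log2 fold change of 0.21 ± 0.14 with the deep NLGF libraries only and 0.51 ± 0.19 with the 3 others only (adjusted p = 0.370, edgeR). The log2 fold change of Cp changed sign, uncalled on either side, at 0.45 ± 0.18 with the deep libraries only (adjusted p = 0.0922, edgeR) and -0.29 ± 0.20 with the 3 others only (adjusted p = 0.580, edgeR). Those of Gfap (-0.22 deep, 0.09 others), Stat3 (-0.14 deep, 0.09 others) and Fbln5 (0.32 deep, -0.11 others) also did so without a call by edgeR in either subset. Vim (-0.00 deep, 0.01 others), S100a6 (-0.02 deep, -0.16 others) and Gbp2 (-1.13 deep, -1.73 others, and -0.34 with the 3 others only and without WT female 5) were not called by edgeR in these subsets. Depth and genotype cannot be told apart in the deep libraries, since no WT library is of this kind.

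Gfap, Osmr and Gbp2 also rose in NLGF hippocampus at week 24 over week 8, in a comparison that shares its 10 NLGF week 24 libraries with the genotype comparison. At week 24 over week 8 the log2 fold change in NLGF libraries was 0.66 ± 0.10 for Gfap (adjusted p = 0.000501), 0.57 ± 0.12 for Osmr (adjusted p = 0.00800) and 0.54 ± 0.13 for Gbp2 (adjusted p = 0.0260) by edgeR's quasi-likelihood test, where 1.83% of 16848 genes were called higher. In the same comparison 8 of 10 microglia markers were called higher (median log2 fold change 0.41), with a summed level of 365 to 467 CPM at week 24 and 278 to 333 CPM at week 8. Called lower by edgeR were 3 of 8 endothelium markers (median -0.18) and 4 of 11 mural cell and meningeal fibroblast markers (median -0.13), among 166 of 16848 genes. In WT libraries the medians of week 24 over week 8 were 0.18 for microglia markers (0 called), -0.10 for endothelium markers (0 called) and -0.17 for mural cell and meningeal fibroblast markers (1 called lower). The part of these cells in the Gfap, Osmr and Gbp2 values was not tested. The Gbp2 call was lost without NLGF week 8 male 1 or without NLGF week 24 female 1, female 3 or male 4 (edgeR adjusted p 0.0515 to 0.0576), and Stat3, at 0.17 ± 0.06 (adjusted p = 0.183), was called without NLGF week 8 female 5 (0.22, adjusted p = 0.0183). Among WT libraries the same test called none of the 10, among 0.19% of 16305 genes called. There the log2 fold change was -0.26 ± 0.15 for Gfap, 0.24 ± 0.14 for Osmr and -0.17 ± 0.15 for Gbp2. These NLGF and WT values are not a test of their difference, which is the one given above and was called for Gfap alone.

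**Figure D5:**
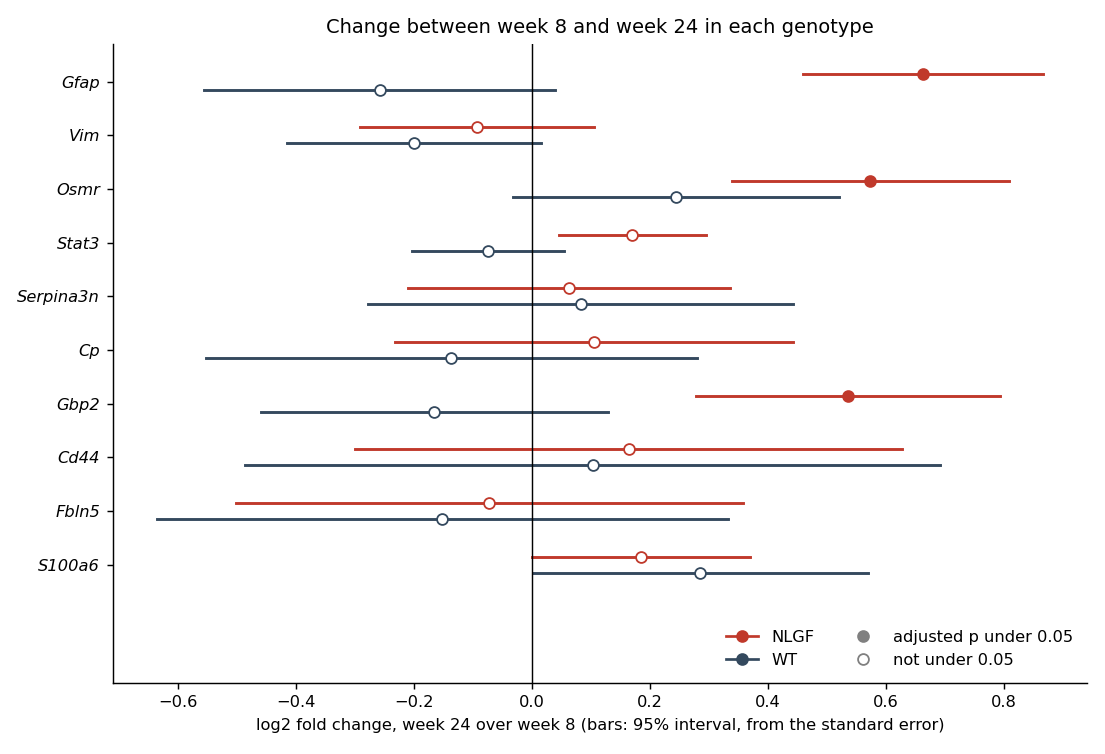
Log2 fold change of week 24 over week 8 for each gene, NLGF above WT, with bars for the 95% interval and filled points for an adjusted p under 0.05. The filled points are Gfap at 0.66, Osmr at 0.57 and Gbp2 at 0.54, all in NLGF, and no WT point is filled.

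In WT hippocampus at week 8 over week 3 none of the 10 genes was called, among 5.11% of 16170 genes. Stat3 had a log2 fold change of -0.16 ± 0.08 (adjusted p = 0.276) and was called without WT week 8 female 1 (-0.22, adjusted p = 0.0227, edgeR). Gbp2 stood at -1.22 ± 0.59, and at -0.05 ± 0.17 without WT week 3 female 5. Fbln5 stood at -0.56 ± 0.28 (adjusted p = 0.292), beside a median of -0.20 for the mural cell and meningeal fibroblast markers.

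No difference in the genotype effect between libraries labelled male and female was called. Among the 10 genes at week 24 male minus female differences passed for 0, among 0 of 17408 genes by edgeR (534 at an unadjusted p under 0.05, 3.07%) and 0 by DESeq2. The log2 fold change of Gfap was 1.01 ± 0.19 in males (lowest, median and highest 384, 564 and 684 CPM in NLGF and 195, 263 and 347 CPM in WT) and 0.72 ± 0.08 in females (486, 548 and 658 CPM in NLGF and 322, 339 and 367 CPM in WT). The difference of 0.28 ± 0.21 had a 95% interval of -0.13 to 0.70. Taken alone, the fit of 5 against 5 males gave an adjusted p of 0.0850 and that of females 0.00178 (edgeR quasi-likelihood).

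After removal of group means, the median r over the 45 pairs of the 10 genes was 0.08 across 60 libraries, and 6 pairs exceeded 0.5. Among the 20 libraries of week 24 the median r was 0.32, and 8 pairs exceeded 0.5, the highest at 0.84. Over all 60 libraries the pairs above 0.5 were Cp and Fbln5 (0.77), Vim and Fbln5, Osmr and Cp, Gfap and Serpina3n (0.58 each), Vim and Cp (0.57) and Vim and Stat3 (0.52), and Gbp2 followed the sum of its paralogs (0.89 with all libraries, 0.73 without WT week 3 female 5). Gfap and Osmr had an r of 0.80 at week 24, against 0.12 over all 60. Libraries share depth and tissue content, and no test was made of these values.

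By level over all 60 libraries, group differences included, the 3 genes of 13372 candidates (mean 1 CPM or more) most like Gfap were Csf1 (r = 0.80), Olfml3 (0.75) and Fcrls (0.71). Those most like Osmr were Rnase4 (0.76), Cx3cr1 (0.74) and Il13ra1 (0.73). Gbp2 was nearest to Iigp1 (0.88), Gbp5 (0.87) and Irgm2 (0.86). These values include WT week 3 female 5, at 52.4 CPM of Gbp2 (at most 4.51 CPM in any other library), 23.4 CPM of Iigp1 (at most 3.84 CPM) and 31.3 CPM of Gbp5 (at most 3.31 CPM). They may rest in large part on that library and were not computed without it. Serpina3n was nearest to Shisa6 (0.91), Cyfip1 (0.88) and Pcdh20 (0.84). Genes near Cp included Ogn (0.86) and Cped1 (0.84), and Fbln5 to Cyp1b1 (0.84), Gjb2 (0.82) and Colec12 (0.81). Vim was nearest to Flnc (0.82), Mrc2 (0.81) and Sned1 (0.81), Stat3 to Spata13 (0.75), Chd7 (0.74) and Frmd4b (0.74), Cd44 to Cbln4 (0.78), Plcxd3 (0.75) and Cd200 (0.72), and S100a6 to Sec61g (0.76), Rpl10 (0.74) and Rps27 (0.74).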

How the data were processed

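The authors deposited whole-number counts per gene symbol for 60 hippocampus libraries, and a table of their own comparisons with base mean signal, log2 fold changes and p-values. FastQC, STAR, edgeR, DESeq2 and mm10 are named per the submitters' processing notes; no source used here gives the read counter, annotation or strand setting, so reads of overlapping, antisense or near-identical genes may be shared. Libraries were grouped by the genotype, week and sex labels. Genotype effects were fitted at each week with sex as a covariate, from the deposited counts, by edgeR 4.0.16 in R 4.3.3 (TMM scaling, filterByExpr with a minimum count of 10, robust quasi-likelihood F test, Benjamini-Hochberg over all genes tested, threshold 0.05). Differences between weeks used interaction terms over all 60 libraries. CPM used TMM-scaled totals, and intervals are 1.96 SE either side. DESeq2 1.42.0, limma 3.58.1 voom and the other alternatives, among them leaving out each library, are given in the closing section. The members, the gene lists and the added alternatives were chosen with earlier results of these data known. By rule the text names all 10 members, up to 4 called genes per list with the smallest p, paralogs averaging 0.1 CPM or more, and the 3 nearest genes per member by Pearson r; Il6st, Lifr, Socs3, Osm, C3 and the genes high in WT week 3 female 5 were chosen after their values were seen. Correlations of members used log2 CPM with a pseudocount of 0.5, less the mean of each of the 12 groups. Those without NLGF week 3 male 2 were taken less the mean of each genotype and week instead. Gene coordinates are from GENCODE and promoter windows from RefSeq, both GRCm38. Depth per library is given with the data and limits the precision of genes at few CPM. A few genes falling under this naming are not reported here.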

Additional observations from a re-analysis of the deposited data

Results flagged for a closer look

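In 6 of 60 sets of 10 libraries, 1 library lay far from the rest of its set by Dixon's test (95% critical value 0.466), a test that chance passes in about 1 of 20 sets. Stat3 was 63.9 CPM in NLGF week 8 female 5 (next highest 49.4 CPM) and 65.0 CPM in WT week 8 female 1 (next highest 52.2 CPM). Serpina3n was lowest in NLGF week 8 male 5 at 25.1 CPM (next lowest 33.8 CPM). Cp was 31.9 CPM in WT week 8 female 3 (next highest 13.7 CPM), and Cd44 was lowest in WT week 8 female 1 at 1.64 CPM (next lowest 4.18 CPM). Gbp2 was 52.4 CPM in WT week 3 female 5 (next highest 4.30 CPM).

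The genotype effect differed between ages by an interaction term in 3 cases: Gfap at week 24 minus week 8 (0.92 on the log2 scale), Gfap at week 24 minus week 3 (0.99) and Gbp2 at week 24 minus week 3 (1.99). Without the 7 deep NLGF week 3 libraries neither week 3 difference was called by edgeR (Gfap 0.77, adjusted p = 0.276, and Gbp2 2.29, adjusted p = 0.282).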

How the results depend on the processing

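Counts of genes called depended on the tool and libraries, and the cause was not tested. At week 24 edgeR called 145 genes, DESeq2 224, females alone 44 and males alone 37. At week 8 it called 0 and DESeq2 1. At week 3 it called 628, DESeq2 1486, no filter on low counts 351, all 60 libraries in 1 fit 1904, voom 3130, females alone 190 and males alone 6, the deep NLGF libraries only 3671, the 3 others only 0 (1965 at an unadjusted p under 0.05), and 0 without WT female 5 as well (1757 unadjusted, a choice made after seeing the data). For week 24 minus week 3 it called 204, DESeq2 308, no filter 124, the deep libraries only 1471, the others only 15 and without WT female 5 as well 18. DESeq2 called 137 for WT week 24 over week 8 (edgeR 31) and 720 for NLGF (edgeR 474). With 1 library left out the counts were 115 to 168 at week 24, 102 to 1923 at week 3, 124 to 538 for week 24 minus week 3, 613 to 1808 for WT week 8 over week 3 (827) and 10 to 51 for WT week 24 over week 8. The highest of these came without NLGF week 3 male 1 (1923 at week 3 and 538 for week 24 minus week 3), WT week 8 female 1 (1808) and WT week 8 female 3 (51), and the lowest without NLGF week 3 female 5 (102), NLGF week 3 female 4 (124) and WT week 8 female 2 or male 2 (10 each).

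Same-numbered libraries varied together in 3, 3 and 6 of 10 pairs at weeks 3, 8 and 24 (r above 0.1, median r 0.041, 0.019 and 0.188). Not every pair passed 0.1, so the numbers were not taken to pair the libraries, although the share was higher at week 24. With the replicate number as a block edgeR called 165 genes at week 3, 508 for WT week 8 over week 3 and 6 for WT week 24 over week 8, and Gfap, Osmr and Gbp2 remained called at week 24 (log2 fold changes 0.86, 0.53 and 0.65).

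The week 24 call of Gfap held in all 20 fits without 1 library and was lost in males alone. Osmr was not called in females (0.39, adjusted p = 0.893) or males alone (0.70, adjusted p = 0.330), nor Gbp2 in females (0.74, adjusted p = 0.244), males (0.56, adjusted p = 0.831) or all 60 libraries in 1 edgeR fit (0.65, adjusted p = 0.860). No result changed sign while called.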
